A study of Mus musculus with 8 samples.

Results

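The genes described here build, load and regulate major histocompatibility complex (MHC) class I molecules in mouse embryonic stem cells. They are 10 genes of 18193 named on the array: H2-K1, H2-D1, B2m, Tap1, Tap2, Tapbp, Psmb8, Psmb9, Psmb10 and Nlrc5. Their members were taken as the probe sets whose only gene symbol in the platform's annotation was one of these names, which gave 27 probe sets of 45101. A further 3 probe sets that list a member beside another gene were left out. All 10 genes were tested, each through its brightest probe set, and each lay above the filter level on 8 of 8 arrays.

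Class I molecules carry peptides from inside the cell to its surface, where cytotoxic T cells inspect them. Proteasomes cut the peptides, a transporter moves them into the endoplasmic reticulum, and a bridging protein holds the empty class I molecule beside that transporter until a peptide is bound. Interferons and NF-kB raise transcription of most of these genes, and undifferentiated embryonic stem cells are known for low surface class I, while fibroblasts carry it.

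RNA was measured on 8 Affymetrix arrays, 2 for each of 4 groups of embryonic stem cells. The Gtf2i mutant line was gene-targeted, derived from the R1 line, and carried Δexon2/+ at Gtf2i, the gene of the transcription factor TFII-I; it is called the exon 2 mutant here. The GTF2iTrap line, called trap, was a gene-trap derivative of AB2.2 cells with the genotype HPRT -/-:GTF2I +/-. The HPRTKO group, called Hprt knockout, carried HPRT -/- and no Gtf2i mutation in its label, and the wild-type group's label names neither a mutation nor a line. Cells of every group were cultured on feeder cells with LIF, and both mutants of Gtf2i keep an allele without the mutation. Each Gtf2i mutation was studied in a single line, so the line and that mutation cannot be told apart. HPRT -/- was carried by both trap and Hprt knockout. With the wild-type line not named, its effect cannot be told apart from that of the line either. The labels call the 2 arrays of a group biological replicates without saying whether the cultures were separate. The p-values reflect no more than the spread between the 2 arrays of a group, pooled over the 4 groups and adjusted towards that of all genes tested. That spread may be technical.

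Levels are log2 intensities normalized by the authors with RMA, a procedure that subtracts background and matches the arrays' distributions. A difference of 1 on this scale is a doubling. A gene was tested when it lay above the 40th percentile of its array, on average log2 5.35, on at least 2 of the 8 arrays. Stem cell markers were high in every group, and all 12 lay above the filter level on every array. Pou5f1 had a mean of 13.05 in the exon 2 mutant, 13.01 in trap, 13.42 in Hprt knockout and 12.78 in wild-type. In Hprt knockout against wild-type 9 of the 12 were higher and 2 lower, beside 6409 higher and 3467 lower of all genes. Of the 4 defining markers, Pou5f1 (0.64) and Sox2 (0.39) were higher there, and Nanog (-0.23) and Zfp42 (-0.21) were lower. The Hprt knockout arrays stood apart: over the 13819 genes tested they correlated at 0.866 with the wild-type arrays, while arrays of a single group correlated at 0.997 to 0.998. Hprt lay at a mean of 10.74 in trap and 10.04 in Hprt knockout, below 12.25 in the exon 2 mutant and 12.08 in wild-type. Gtf2i lay at 10.48 in the exon 2 mutant, 10.09 in trap, 10.90 in Hprt knockout and 10.12 in wild-type, and where its probes lie relative to either mutation was not analysed here.

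The labels name feeder cells beside the stem cells. Markers of fibroblasts, taken here to stand for the feeders, separated the groups. The summed linear intensity of 24 fibroblast markers was 119224 and 121415 in the exon 2 mutant, 125203 and 126271 in trap, 5719 and 5710 in Hprt knockout, and 160282 and 161789 in wild-type. Of the 9 defining markers, Lum alone was below the filter level in Hprt knockout, and none was below it in the other groups. In RNA from a mixed culture, fewer cells of a type and less RNA per cell cannot be told apart. Of the 4 defining haematopoietic markers, Ptprc, Itgam and Tyrobp were below the filter level on all arrays, and Csf1r was above it. Of 6 haematopoietic markers tested, 2 were higher and 2 lower in Hprt knockout than in wild-type. The higher were Cd68 (1.40) and Laptm5 (1.25), and the lower Lyz2 (-3.34) and Adgre1 (-0.60). The 2 endothelial markers tested, Tek (1.79) and Cldn5 (1.01), were higher there. In that comparison 6409 of the 13819 genes tested were called higher and 3467 lower. The part of these cell types in the results was not tested.

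The promoters of the class I chains and B2m, which differed strongly between the lines, are shown beside the bases shared by Tap1 and Psmb9. The group means of Tap1 spanned 0.30 log2 units and those of Psmb9 0.53. The sequences are RefSeq's for GRCm38.p6, read 5′ to 3′ on the gene's strand and ending on the base before an annotated start of transcription. Capitals mark matches on either strand to 4 motifs. They are the interferon core GAANNGAAA; a longer core, GAAA, any pair of bases and GAAA; the H2 kappa B motif, GGGGA followed by TTCCC; and a looser kappa B motif, GGG, any pair of bases and TTTCC. The longer core was added after the promoters had been read.
H2-K1, chr17:34000348-34000527, minus strand: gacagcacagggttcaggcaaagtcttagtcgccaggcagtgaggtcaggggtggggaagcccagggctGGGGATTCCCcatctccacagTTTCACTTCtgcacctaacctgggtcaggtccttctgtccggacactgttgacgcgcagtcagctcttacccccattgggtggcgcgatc
H2-D1, chr17:35262914-35263093, plus strand: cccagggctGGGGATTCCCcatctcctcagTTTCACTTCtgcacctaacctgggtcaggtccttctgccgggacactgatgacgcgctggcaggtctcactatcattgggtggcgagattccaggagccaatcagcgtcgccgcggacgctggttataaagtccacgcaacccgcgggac
B2m, chr2:122147487-122147686, plus strand: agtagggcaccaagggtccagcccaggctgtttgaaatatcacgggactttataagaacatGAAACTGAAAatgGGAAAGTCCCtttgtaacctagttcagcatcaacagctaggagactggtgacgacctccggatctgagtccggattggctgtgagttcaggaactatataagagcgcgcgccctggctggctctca
Tap1 and Psmb9, chr17:34187331-34187555, plus strand, the bases between both starts: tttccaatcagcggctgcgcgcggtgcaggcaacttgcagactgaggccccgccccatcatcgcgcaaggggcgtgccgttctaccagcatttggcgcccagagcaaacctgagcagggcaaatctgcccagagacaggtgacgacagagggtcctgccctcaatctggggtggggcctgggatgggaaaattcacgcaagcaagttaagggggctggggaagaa

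Windows around the start were matched for 8 of the 10 genes, and those of Tap2 and Nlrc5 were not used here. H2-K1 and H2-D1 share the same layout, an H2 kappa B match followed by a GAANNGAAA match on the opposite strand, and over the best ungapped stretch of 160 bases the pair is 91.2% identical. Relative to the start the matches begin at -111 and -90 in H2-K1, and at -171 and -150 in H2-D1. RefSeq gives H2-K1 a second start, from which they begin at -125 and -104. In B2m, which encodes the light chain that every class I molecule needs, a match to the longer core begins at -139 and a looser kappa B match at -126. Tap1 and Psmb9 are transcribed away from each other with 225 bases between their starts, and these hold no match to any of the 4 motifs. Neither do the windows of Tapbp, Psmb8 and Psmb10, whose group means spanned 1.67, 3.77 and 0.41 log2 units. Among 32851 promoter windows of the same length, GAANNGAAA is found in 7.52%, the longer core in 3.44%, the H2 kappa B motif in 0.107% and the looser one in 1.63%. A match is a run of letters and not a measured binding site, and its absence says only that these letters are not in the window.

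**Figure D1:**
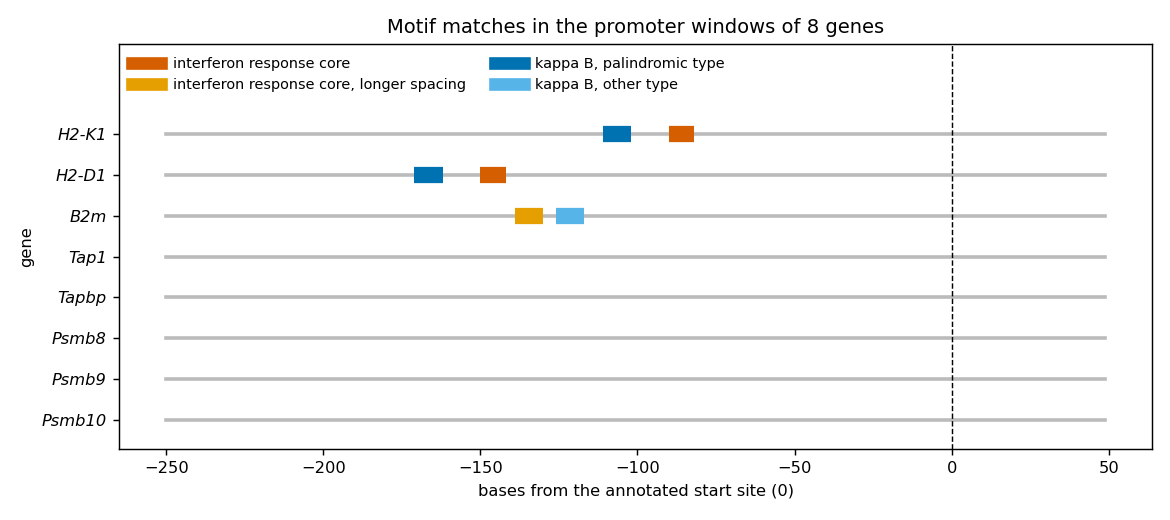
Motif matches in the promoter windows of 8 genes, drawn by distance in bases from the annotated start (dashed line at 0); grey lines are the windows and coloured blocks the matches. H2-K1, H2-D1 and B2m each hold an interferon response core beside a kappa B match, while the other 5 windows hold none of the 4 motifs. The core in B2m is the longer one, which was added after the promoters had been read.

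The class I heavy chains and their light chain were lowest in Hprt knockout by a wide margin, and the exon 2 mutant lay next above it. H2-K1, a classical heavy chain, had log2 intensities of 11.28 and 11.37 in the exon 2 mutant, 11.98 and 11.97 in trap, 9.0 and 9.15 in Hprt knockout, and 12.20 and 12.09 in wild-type. Its group means fell in the order wild-type, trap, exon 2 mutant and Hprt knockout, and Hprt knockout lay more than 2 log2 units below the next group. The difference between wild-type and trap was not called. H2-D1, the other classical heavy chain, had 11.47 and 11.57 in the exon 2 mutant, 12.24 and 12.27 in trap, 9.26 and 9.14 in Hprt knockout, and 12.46 and 12.36 in wild-type. The group means of H2-D1 fell in the same order, and wild-type and trap were again not called apart. B2m had 12.91 and 12.84 in the exon 2 mutant, 13.63 and 13.73 in trap, 10.32 and 10.30 in Hprt knockout, and 13.42 and 13.43 in wild-type. For B2m trap was the highest group, above wild-type on both arrays.

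Tap1 and Tap2 encode the pair of subunits of the peptide transporter, and they differed in how far they varied. Tap1 had 8.14 and 8.22 in the exon 2 mutant, 8.09 and 8.21 in trap, 7.94 and 8.19 in Hprt knockout, and 8.36 and 8.37 in wild-type. The exon 2 mutant, trap and Hprt knockout arrays overlapped, and group means spanned 0.30 log2 units. Tap2 had 7.20 and 7.26 in the exon 2 mutant, 7.40 and 7.34 in trap, 6.22 and 6.15 in Hprt knockout, and 7.75 and 7.56 in wild-type, a span of 1.47 with Hprt knockout lowest. Tapbp encodes tapasin, which bridges the class I molecule to the transporter. It had 9.83 and 9.86 in the exon 2 mutant, 9.88 and 9.85 in trap, 8.64 and 8.57 in Hprt knockout, and 10.26 and 10.30 in wild-type, so that the Gtf2i mutants overlapped between a higher wild-type and a lower Hprt knockout.

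Psmb8, Psmb9 and Psmb10 encode the catalytic subunits that replace the constitutive ones when a cell forms immunoproteasomes. Psmb8 had 9.23 and 9.34 in the exon 2 mutant, 9.25 and 9.28 in trap, 5.91 and 6.29 in Hprt knockout, and 9.92 and 9.82 in wild-type. Its group means spanned 3.77 log2 units, the widest span of the 10 genes. The Hprt knockout values of Psmb8 lay not far above the filter level of those arrays (5.33 and 5.36), which limits the precision of this span. Psmb9, whose gene faces Tap1 across the shared control region printed above, had 7.64 and 7.61 in the exon 2 mutant, 7.44 and 7.32 in trap, 7.42 and 7.54 in Hprt knockout, and 7.89 and 7.93 in wild-type. Here trap and Hprt knockout overlapped and the span was 0.53. Psmb10 had 9.35 and 9.37 in the exon 2 mutant, 9.45 and 9.37 in trap, 9.11 and 9.0 in Hprt knockout, and 9.45 and 9.47 in wild-type, a span of 0.41. The subunits of the immunoproteasome thus did not vary to the same extent across the lines.

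Nlrc5 encodes the transactivator that drives class I promoters. It had 5.35 and 5.52 in the exon 2 mutant, 6.17 and 6.16 in trap, 5.50 and 5.45 in Hprt knockout, and 6.25 and 5.86 in wild-type, all near the filter level. The exon 2 mutant and Hprt knockout arrays overlapped at the low end, and trap and wild-type overlapped at the high end.

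**Figure D2:**
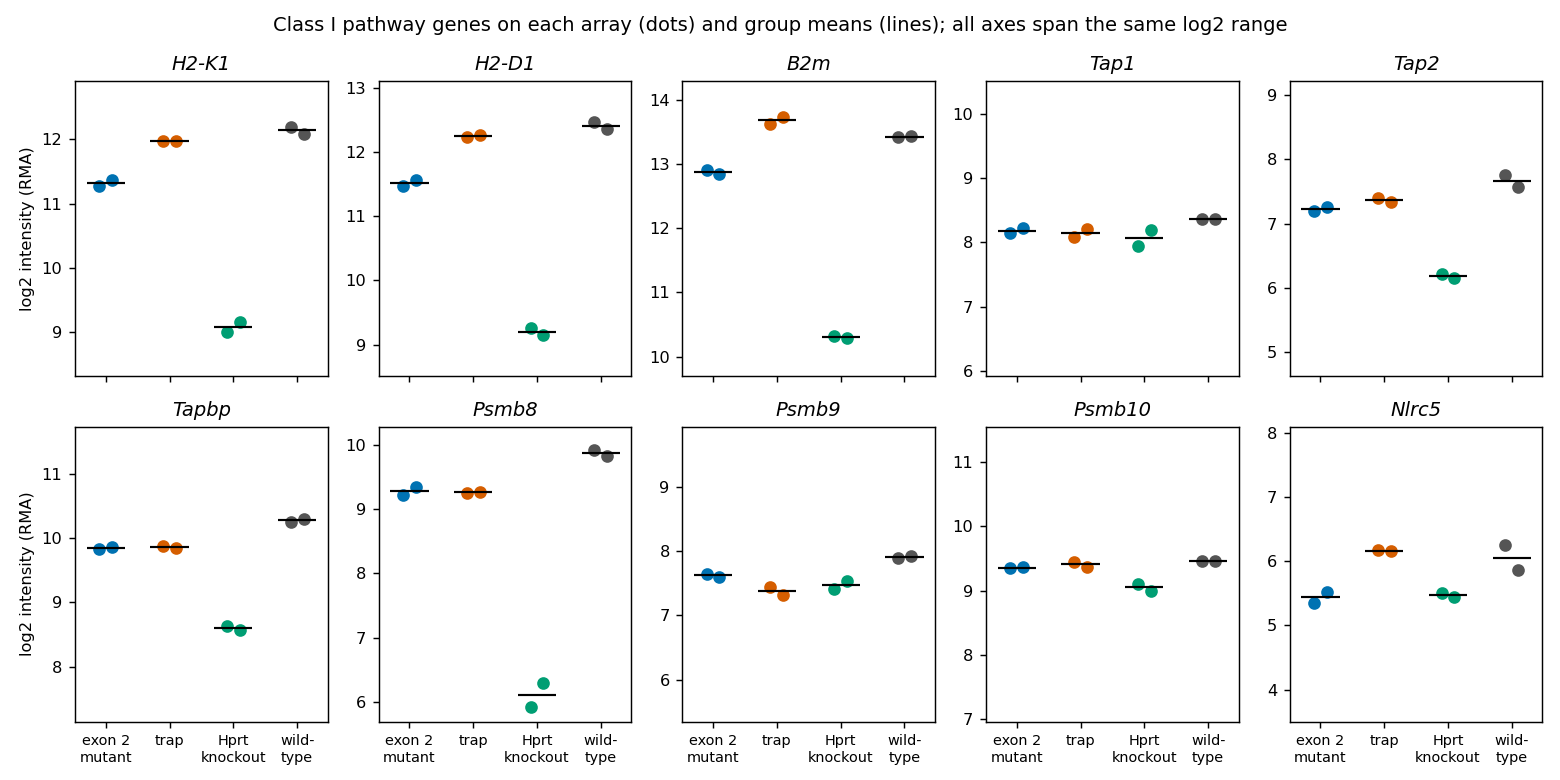
Log2 intensity (y axis) of the brightest probe set of each gene on each array (dots) in the exon 2 mutant, trap, Hprt knockout and wild-type, with group means as lines. The Hprt knockout arrays sit far below the others for H2-K1, H2-D1, B2m, Tap2, Tapbp and Psmb8, while for Tap1, Psmb9 and Psmb10 the group means span 0.30 to 0.53.

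The first question was how the pathway differs between cells lacking exon 2 on 1 Gtf2i allele and wild-type cells. Of the 10 members 8 were lower in the exon 2 mutant, none was higher, and Tap1 and Psmb10 did not pass. In all, 55.5% of the 13819 genes tested were called in this comparison, and 23.1% of the genes tested were called lower in the mutant; the 4485 higher and 3189 lower calls became 3671 and 4028 under cyclic loess. The member median was a log2 fold change of -0.49, against 0.03 over all genes. The heavy chains had fallen most, H2-D1 by -0.89 ± 0.07 (SE, adjusted p = 6.94e-05, n = 2 against 2 arrays) and H2-K1 by -0.82 ± 0.07 (adjusted p = 0.000133). Nlrc5 was lower by -0.62 ± 0.13 (adjusted p = 0.00511) and Psmb8 by -0.59 ± 0.12 (adjusted p = 0.00503). B2m (-0.55), Tapbp (-0.43), Tap2 (-0.43) and Psmb9 (-0.28) made up the rest. The 95% interval was -0.40 to 0.03 for Tap1 and -0.24 to 0.04 for Psmb10. Both passed under cyclic loess, at -0.29 and -0.22, and Tap1 also without the Hprt knockout arrays or either of them. Of 24 fibroblast markers 22 were lower in the same comparison, with a median of -0.55, and their part in the result was not tested.

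The trap line was compared with Hprt knockout, the group that shares its Hprt genotype. Of the 10 members 8 were higher in trap and none was lower, with a median of 1.22. Over all genes 68.4% were called, 26.6% higher in trap, and the median was -0.13; 3675 higher and 5774 lower calls became 4689 and 4243 under cyclic loess, which put that median at 0.01. B2m was 10.4-fold higher in trap (log2 3.37 ± 0.06, adjusted p = 1.90e-08), Psmb8 8.93-fold (3.16 ± 0.12, adjusted p = 7.93e-07), H2-D1 8.28-fold (3.05 ± 0.07) and H2-K1 7.47-fold (2.90 ± 0.07). Tapbp (1.26) and Tap2 (1.18) were higher to a smaller extent, followed by Nlrc5 (0.69) and Psmb10 (0.36). Tap1 and Psmb9, the pair with the shared control region, did not pass, with 95% intervals of -0.13 to 0.30 and -0.25 to 0.06. Fibroblast markers were higher in 24 of 24 cases, with a median of 4.28, and their part in the result was not tested.

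Hprt knockout was compared with wild-type, and the comparison shares arrays with the 2 before. All 10 members were lower in Hprt knockout, with a median of -1.57, or -1.73 relative to the median of all genes. In this comparison 71.5% of all genes were called, 25.1% lower, and the 6409 higher and 3467 lower calls became 4710 and 4731 under cyclic loess. Psmb8 was 13.6-fold lower in Hprt knockout (log2 -3.77 ± 0.12, adjusted p = 2.80e-07), H2-D1 9.26-fold (-3.21 ± 0.07), B2m 8.69-fold (-3.12 ± 0.06) and H2-K1 8.39-fold (-3.07 ± 0.07). Tapbp fell by 1.67 and Tap2 by 1.47 on the log2 scale, and the other 4 members by 0.30 to 0.58. Tap1 was lower by -0.30 ± 0.09 (adjusted p = 0.0203), a call lost without Hprt knockout replicate 1 (-0.17, adjusted p = 0.0994) and without either wild-type array (adjusted p = 0.0682 and 0.0757). Fibroblast markers were lower in 24 of 24 cases with a median of -4.79, and their part in the result was not tested.

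The trap line and wild-type differ in both the Hprt and the Gtf2i label, and 5 of 10 members were called between them. B2m was higher in trap by 0.25 ± 0.06 (adjusted p = 0.0111), and 4 members were lower, Psmb8 by -0.61 ± 0.12 (adjusted p = 0.00646), Psmb9 by -0.53 ± 0.06 (adjusted p = 0.000904), Tapbp by -0.41 ± 0.05 (adjusted p = 0.000932) and Tap2 by -0.29 ± 0.07 (adjusted p = 0.0191). The background was 41.1% of all genes called, 26.5% higher and 14.6% lower, and 3662 higher and 2011 lower calls became 3034 and 2570 under cyclic loess. H2-K1 and H2-D1 did not pass, with 95% intervals of -0.34 to 0.01 and of -0.32 to -0.00089. The count of 5 fell to 3 without trap replicate 2 or without wild-type replicate 1, where the calls of B2m and Tap2 were lost, and Tap2 was also lost without trap replicate 1. Of 24 fibroblast markers 10 were lower and 2 higher in trap (median -0.18), and their part in the result was not tested.

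Set directly against trap, the exon 2 mutant had lower B2m (-0.80 ± 0.06, adjusted p = 7.32e-05), H2-D1 (-0.73 ± 0.07), Nlrc5 (-0.73 ± 0.13) and H2-K1 (-0.65 ± 0.07). Psmb9 was higher (0.25 ± 0.06, adjusted p = 0.0177), a call lost without exon 2 mutant replicate 1 (adjusted p = 0.0713) or trap replicate 2 (adjusted p = 0.106). The other 5 members did not pass, and for Tapbp the 95% interval was -0.14 to 0.10. In this comparison 49.2% of all genes were called, 24.5% higher and 24.7% lower. Of the fibroblast markers 6 were higher and 13 lower (median -0.21), and their part in the result was not tested. Thus the chains of the class I molecule and Nlrc5 were lower in the exon 2 mutant, and Tap1, Tap2, Tapbp, Psmb8 and Psmb10 were not called.

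Against Hprt knockout the exon 2 mutant had 7 members higher and none lower, where 61.2% of all genes were called, 24.9% higher. The 3442 higher and 5013 lower calls over all genes became 4419 and 3671 under cyclic loess. Psmb8 was 9.06-fold higher in the exon 2 mutant, B2m 5.94-fold, H2-D1 4.99-fold and H2-K1 4.75-fold. Nlrc5 was not called (-0.04, 95% interval -0.34 to 0.26), nor were Tap1 (0.11) and Psmb9 (0.15). Fibroblast markers were higher in 24 of 24 cases (median 4.38), and their part in the result was not tested.

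The difference between the exon 2 mutant and wild-type was set against that between trap and Hprt knockout, in lines that cannot be told apart from the mutations. It was called for 8 of 10 members, all negative, where 69.7% of all genes were called, 27.0% lower. The difference was -3.92 ± 0.08 for B2m (adjusted p = 6.31e-08), and it did not pass for Tap1 and Psmb9. The fibroblast markers were called negative in 24 of 24 cases (median -4.85), and their part in the result was not tested.

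**Figure D3:**
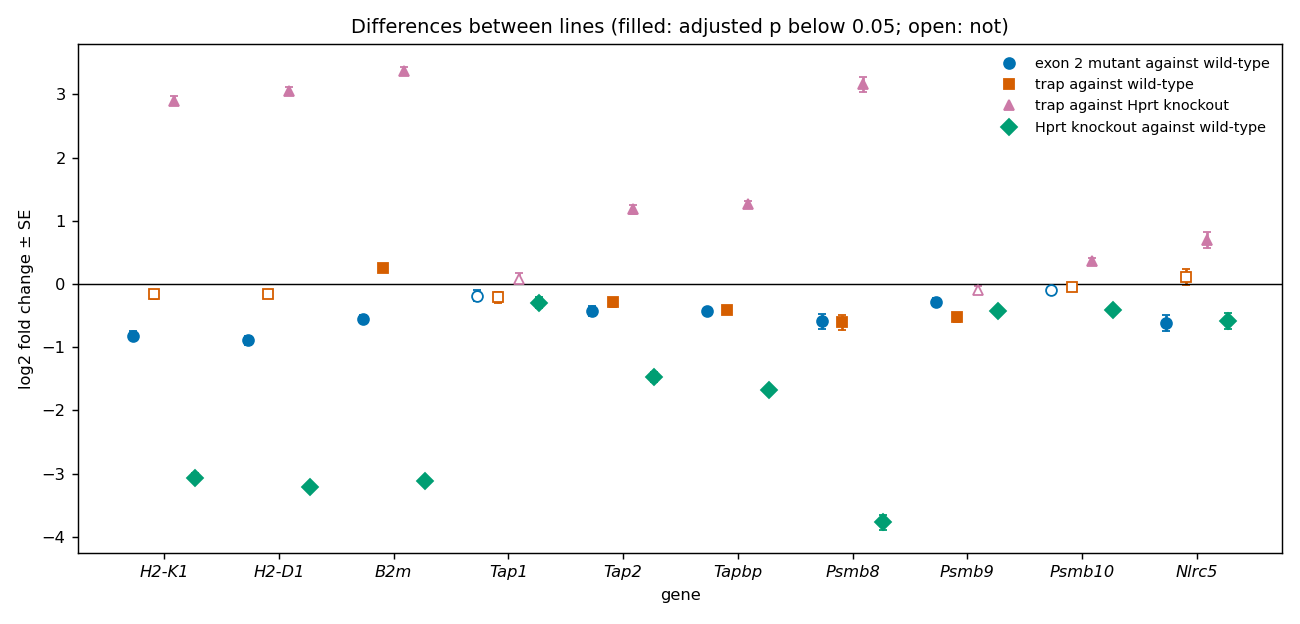
Log2 fold change (y axis) of each gene (x axis) in 4 comparisons, with bars for the standard error; filled symbols passed an adjusted p of 0.05 and open ones did not. Tap1 and Psmb9 lie near 0 in trap against Hprt knockout, while B2m, H2-K1, H2-D1 and Psmb8 lie at 2.90 to 3.37; the comparisons share arrays.

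Several members had more than 1 probe set, and these were compared because near-identical class I genes can share probes. Of the 27 probe sets 20 passed the filter, and 13 carry the suffix that Affymetrix gives to probe sets with probes matching other genes, among them all 4 of H2-K1. For H2-D1, 5 of 9 were tested. Its only tested probe set without that suffix was lower in Hprt knockout than in wild-type by -2.60, against -3.29 to -3.21 for the 3 bright probe sets with it. H2-K1 and H2-D1 signals are therefore uncertain as measures of a single gene. A dim H2-D1 probe set at about log2 6 gave -0.30 and was not called (adjusted p = 0.0982 over 28786 probe sets), and a dim one of H2-K1 gave -0.74. Both B2m probe sets gave -0.55 for the exon 2 mutant, and -3.12 and -3.13 for the Hprt knockout, each set against wild-type. Over all probe sets tested, 46.3% were called in the exon 2 comparison and 64.0% in the Hprt comparison. The dimmer Tapbp probe set gave -0.45 for the Hprt knockout comparison, where the brighter gave -1.67. The second tested Tap1 probe set, at log2 5.45 to 5.75, went the other way, at 0.09 (adjusted p = 0.250). It was not called in the exon 2 mutant against wild-type (-0.16) either. Against Hprt knockout it was called lower in the exon 2 mutant (-0.25, adjusted p = 0.0109), while the brighter Tap1 probe set was not called (0.11). In that comparison 13 of the 20 probe sets were higher and 1 was lower.

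**Figure D4:**
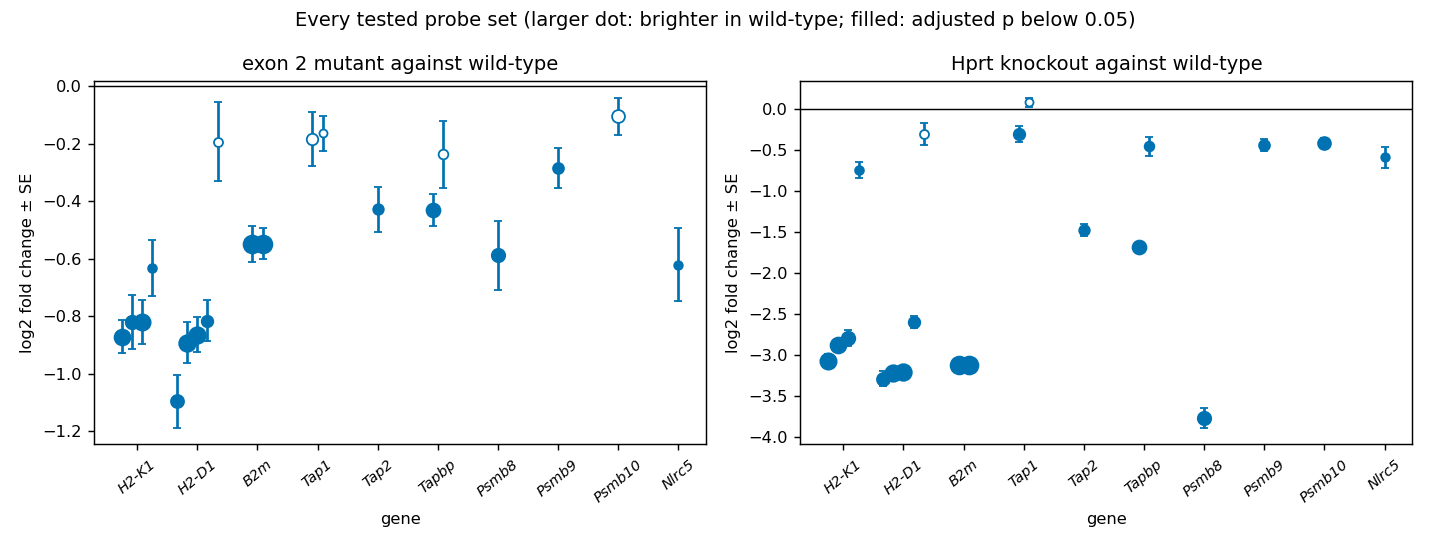
Log2 fold change with standard error (y axis) of all 20 tested probe sets, grouped by gene (x axis), with the exon 2 mutant (left) and Hprt knockout (right) each set against wild-type; larger dots are brighter in wild-type and filled dots passed. Bright probe sets of H2-K1, H2-D1 and B2m lie together, and dim ones of H2-K1, H2-D1 and Tapbp lie nearer 0.

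Other genes of the pathway were followed from lists chosen with earlier results of these data known. The constitutive catalytic subunits Psmb5, Psmb6 and Psmb7, which the immunoproteasome subunits replace, were higher in Hprt knockout than in wild-type in 3 of 3 cases (0.33, 0.34 and 0.69), or in 2 of 3 under cyclic loess. Relative to all genes their median was 0.18. In that comparison 6409 of the 13819 genes tested were called higher, or 4710 under cyclic loess. The other 11 core subunits of the proteasome had 6 rises and no fall there, but 1 rise under cyclic loess, and a median equal to that of all genes. Psme1, a subunit of the interferon-inducible proteasome activator, was lower in Hprt knockout than in wild-type (-0.26 ± 0.06, adjusted p = 0.00482) and higher in the exon 2 mutant than in wild-type (0.23), but the exon 2 call was lost under cyclic loess (adjusted p = 0.111).

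Among 5 genes of peptide trimming and loading, Erap1, the aminopeptidase that trims peptides in the endoplasmic reticulum, varied most. It was lower in the exon 2 mutant than in wild-type (-0.39 ± 0.08, adjusted p = 0.00540), higher in trap than in Hprt knockout (1.74) and lower in Hprt knockout than in wild-type (-1.67). The chaperone genes Calr (-0.44) and Pdia3 (-0.20) were lower in the exon 2 mutant too, and 3 of 5 members of the list fell there, where 23.1% of all genes were called lower and 55.5% in either direction. All 5 were higher in trap than in Hprt knockout, where 26.6% of all genes were higher, and Canx and Calr differed by 0.20 and 0.19. Calr lost that call with arrays centred on their medians (adjusted p = 0.0616).

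Of 17 other class I and class I-like chains 9 were on the array with their own symbol and 6 were tested. Fcgrt, the receptor that recycles antibodies, was lower in Hprt knockout than in wild-type by -2.32 and Hfe, which acts in iron uptake, by -2.16. H2-M3, which presents formylated peptides, was lower there by -1.24, and H2-Bl was higher by 0.42 (adjusted p = 0.0125), so that 3 were lower and 1 higher, or 5 and 1 under cyclic loess. In that comparison 71.5% of all genes were called and 25.1% were lower, and the 3467 lower calls became 4731 under cyclic loess. H2-Bl was lower in trap than in Hprt knockout by -0.85. Cd1d1, a presenter of lipids, was higher in the exon 2 mutant (0.40) and in trap (0.71) than in wild-type. Of 5 tested genes of the class II pathway only Ctss was called in the exon 2 mutant against wild-type (-0.65), where 55.5% of all genes were called. Ciita, the class II transactivator, was below the filter.

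Interferon signalling genes split. In the exon 2 mutant against wild-type 4 of 11 were higher, 5 were lower and 2 did not pass, where 55.5% of all genes were called and 23.1% were lower. Stat2 (0.93 ± 0.11, adjusted p = 0.000435) and Irf1 (0.65 ± 0.08, adjusted p = 0.000493), which activate transcription from interferon response elements, were higher, and the interferon-gamma receptor genes Ifngr2 (-0.63) and Ifngr1 (-0.53) were lower. In Hprt knockout against wild-type 9 of 11 were lower and 1 higher, where 25.1% of all genes were lower, with Irf9 at -2.0, Jak2 at -1.76 and Ifngr2 at -1.70. Irf1 was not called there (-0.14, 95% interval -0.33 to 0.05). Among 10 tested factors that bind class I promoters, 5 were higher and 3 lower in the exon 2 mutant than in wild-type. Over all 13819 genes 4485 were higher and 3189 lower. Creb1 was at 0.66, Rfxank at 0.57 and the NF-kB subunit Rela at -0.49. In Hprt knockout against wild-type 6 of the 10 were higher and 3 lower, beside 6409 higher and 3467 lower of all genes. The lower were Relb (-1.57), Rela (-0.94) and Nfkb2 (-0.49), and Creb1 was highest at 0.60. Rfx5, which binds the same promoter module as Nlrc5's complex, was higher in trap than in wild-type by 0.70.

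Interferon-induced genes outside antigen presentation moved with the members in most comparisons. Of 13 tested, 10 were lower and none higher in the exon 2 mutant than in wild-type, with a median of -0.55, where 23.1% of all genes and 22 of 24 fibroblast markers (median -0.55) were lower. They were lower in 13 of 13 cases in Hprt knockout (median -3.71) and in 12 of 13 cases in trap (median -0.75), each against wild-type, where 25.1% and 14.6% of all genes were lower. The fibroblast markers were lower there in 24 of 24 (median -4.79) and 10 of 24 cases (median -0.18), and their part in the result was not tested. Usp18, an inhibitor of interferon signalling, fell by 1.18 on the log2 scale in trap. In the exon 2 mutant against trap 5 were higher and none lower, where 24.5% of all genes were higher, among them Rsad2 at 0.76, while H2-K1, H2-D1 and B2m were lower in that comparison. Over the 8 arrays the genes whose profile was most like the mean of the 10 members, among 3857 that passed a minimum span, were Shisa5, Ahnak, Tnc, Rhoc, Clip3, Vcan, Gpm6b and Gng10. Their Pearson correlations were 0.998 to 1.000, a description of 4 groups of 2 arrays that is led by the low Hprt knockout arrays. The fibroblast marker mean had the same low arrays: over the 8 arrays it correlated with 7 of the 10 members at 0.967 to 0.993, and with Nlrc5, Tap1 and Psmb9 at 0.569, 0.592 and 0.389.

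**Figure D5:**
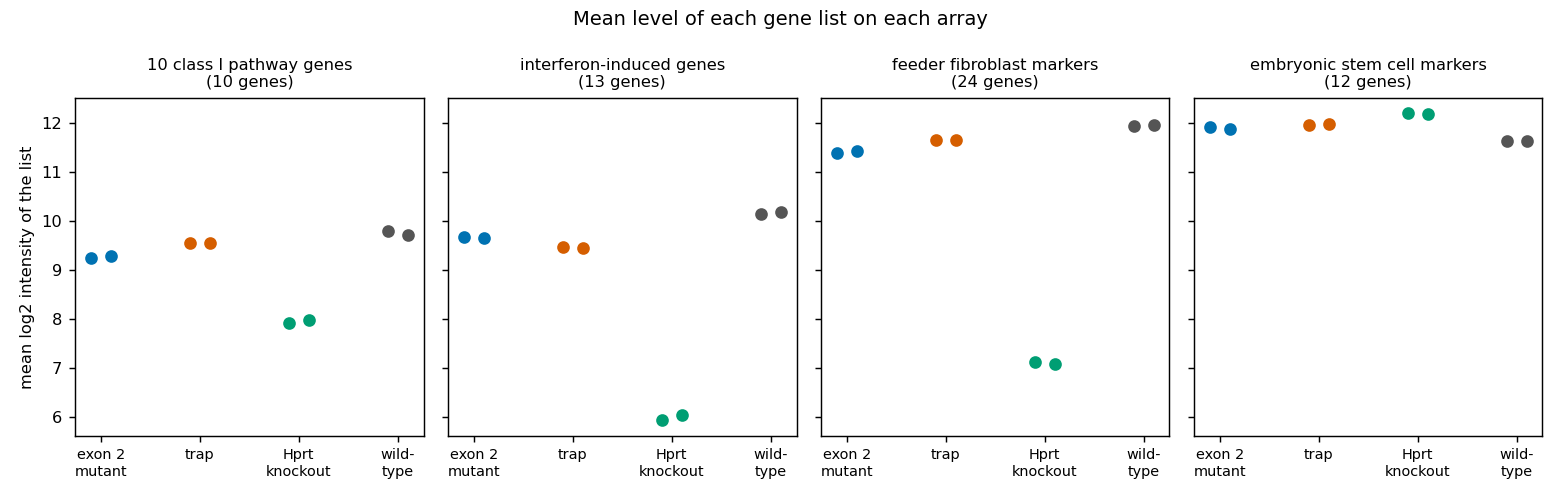
Mean log2 intensity (y axis) over the tested genes of each list on each array, for the 10 class I pathway genes, 13 interferon-induced genes, 24 feeder fibroblast markers and 12 embryonic stem cell markers. The first 3 lists are lowest on the Hprt knockout arrays and highest on the wild-type arrays. The mean of the stem cell markers runs the other way, although Nanog and Zfp42 were lower in Hprt knockout than in wild-type.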

How the data were processed

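Total RNA of 8 samples was labelled and hybridised to Affymetrix arrays, per the labels' protocols. The authors deposited log2 intensities of 45101 probe sets made with RMA, per the submitters' processing notes; no version was recorded there. RMA equalises the arrays' distributions, so a shift of most genes is not visible. Groups were taken from the sample titles. Probe sets with 1 symbol in the platform annotation were used, and the brightest of a gene stood for it. The 4 group means were estimated jointly from the 8 arrays in limma 3.58.1 in R 4.3.3 (lmFit, eBayes, 4 residual and 6.86 total degrees of freedom), after a check on simulated data. P-values are two-sided, adjusted by Benjamini-Hochberg over all genes tested (or all probe sets), with a threshold of 0.05. With 2 arrays a group, exact permutation gives no p under 0.333. The number of arrays limits the precision.

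The members and lists were chosen with earlier results of these data known. Named were all members, up to 4 called genes per list and comparison, defining markers and the 8 most alike genes. Replicate numbers are not known to pair the arrays. Correlations of the replicate differences between groups ran from -0.28 to 0.17. They were positive for the exon 2 mutant with Hprt knockout (0.17) and trap with wild-type (0.14), and negative for the other pairs. Whether arrays of different groups belong together under another numbering was not tested. Alternatives were cyclic loess, median centring, no filter or a filter at the 60th percentile, the mean of probe sets, only the compared arrays, leaving out Hprt knockout, eBayes with trend and robust, a replicate block and each array left out.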

Additional observations from a re-analysis of the deposited data

Results flagged for a closer look

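The difference of the exon 2 mutant from wild-type and that of trap from Hprt knockout were unlike for 8 members, tested as the difference of both log2 fold changes in the limma fit, in which 69.7% of all genes were called. The difference was -3.94 ± 0.10 (SE, adjusted p = 1.15e-07) for H2-D1, -3.92 ± 0.08 for B2m, -3.75 ± 0.17 for Psmb8 and -3.72 ± 0.10 for H2-K1. It was -1.69 for Tapbp, -1.61 for Tap2, -1.31 for Nlrc5 and -0.46 for Psmb10 (adjusted p = 0.00194). These members were lower in the exon 2 mutant and higher in trap, against wild-type and Hprt knockout in that order, on both arrays of each mutant, except that Psmb10 was not called in the exon 2 mutant. Tap1 (-0.27, adjusted p = 0.0994) and Psmb9 (-0.19, adjusted p = 0.109) did not pass. The fibroblast markers differed in the same way, with a median of -4.85 and 24 of 24 called, and their part in the result was not tested. No group had enough arrays for a search for outlying samples.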

How the results depend on the processing

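Apart from leaving out single arrays, every alternative kept each count of called members within 1.5 times. Not every setting tested all 10 members. Against wild-type these counts ran from 7 to 10 for the exon 2 mutant, 9 to 10 for Hprt knockout and 5 to 7 for trap. They were 7 to 8 for each Gtf2i mutant against Hprt knockout, 4 to 5 between the mutants and 7 to 10 for the difference between both contrasts. With single arrays left out, the count ran from 3 to 6 for trap and from 8 to 9 for the exon 2 mutant, each against wild-type, and from 9 to 10 for Hprt knockout. Set against Hprt knockout, trap kept 8 and the exon 2 mutant had 7 to 8. Between both Gtf2i mutants it was 4 to 5, and for the difference between both contrasts 8 to 9. With a replicate block the counts were 8 (exon 2 mutant) and 5 (trap) against wild-type, 10 for Hprt knockout, 8 (trap) and 7 (exon 2 mutant) against Hprt knockout, 5 between the mutants and 8 for the difference. The block changed no member's call, and the replicate numbers are not known to pair the arrays.

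Signs turned only for members that were not called. In trap against Hprt knockout, Psmb9 was 0.055 under cyclic loess, and Tap1 ran from -0.043 to 0.21 with single arrays left out. In trap against wild-type, Nlrc5 ran from -0.092 to 0.30 in that way. In the exon 2 mutant against Hprt knockout, Nlrc5 was 0.038 under cyclic loess and ran from -0.12 to 0.049 over left-out arrays, and Tap1 ran from -0.014 to 0.24. In the exon 2 mutant against trap, cyclic loess gave -0.0087 for Tap1 and -0.016 for Psmb8, median centring gave -0.0051 and the mean of probe sets -0.10 for Psmb8. Over left-out arrays Tap1 ran there from -0.029 to 0.088 and Psmb8 from -0.035 to 0.077. The cause was not tested. Nlrc5 lay near background, which limits its precision.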
